A study of Mus musculus with 2 samples.

Results

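The 10 genes described here encode T-box transcription factors, namely Tbx1, Tbx2, Tbx3, Tbx4, Tbx5, Tbx6, Tbx15, Tbx18, Tbx20 and Eomes. They were chosen by name, as the entries of the deposited expression table whose gene column holds one of these symbols, whatever their status, and each of the 10 had 1 entry among the 29126 entries of the table. RNA came from 1 library of Dnmt1+/+ mouse embryonic fibroblasts (MEFs) and 1 library of Dnmt1-/- MEFs, and it was read by strand-specific mRNA-seq. Per the study, both alleles of Dnmt1, the maintenance DNA methyltransferase gene, are hypomorphic in the Dnmt1-/- line, and both lines are null for trp53, the p53 gene. The lines had been derived earlier and were received as a gift, and the strain is unknown per the labels. Each value is thus from 1 library of 1 line, and differences between the lines other than the Dnmt1 allele cannot be told apart from the genotype.

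T-box proteins bind DNA through a conserved domain, the T-box, which was first recognised in Brachyury, the product of the T gene. They act as activators or repressors of transcription, and small changes in their dose disturb the embryo. In mesoderm they lay out the body plan. Eomes and Tbx6 work in the early mesoderm, and Tbx1 in the pharyngeal arches and the cardiac outflow tract. Tbx4 and Tbx5 work in the hindlimb and forelimb, and Tbx2, Tbx5 and Tbx20 in the heart. Genes of this kind are often held silent by Polycomb complexes in cells that do not use them, and the study asked how loss of DNA methylation affects the targeting of Polycomb and the expression of such genes.

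Expression was given as RPKM, read number scaled for transcript length and for mapped reads, so that levels can be compared between genes. Changes are given on the log2(RPKM + 0.1) scale, Dnmt1-/- minus Dnmt1+/+, on which the change of low genes is understated. With 1 library per genotype there is no measure of replicate error and no test, and "higher" or "lower" is said of these libraries. A gene was kept for counting where its status was OK, it carried a symbol, and it reached 1 RPKM in at least 1 of the libraries. The 11244 genes kept had a median log2 change of -0.14, and their middle values ran from -0.56 (lower quartile) to 0.27 (upper quartile). The targeted gene Dnmt1 had 65.2 RPKM in Dnmt1+/+ and 14.5 RPKM in Dnmt1-/- MEFs, a log2 change of -2.16. Of 12 fibroblast markers 11 were kept, and their summed level, Fap included, was 6138 RPKM in Dnmt1+/+ and 3842 RPKM in Dnmt1-/-. Of the 11, 3 (27.3%) were lower and 1 (9.09%) was higher by more than 2-fold, beside 10.9% and 8.47% of all genes kept. The lower genes were Thy1 at 4.84 and 0.129 RPKM, Fn1 at 664 and 235 RPKM, and Col1a2 at 1241 and 476 RPKM. The higher gene was Pdgfra, at 6.95 and 18.7 RPKM. Within 2-fold, Vim had 2269 and 1873 RPKM, and Col1a1 had 1448 and 898 RPKM. Fap, with 0.0315 RPKM in Dnmt1+/+ and listed at 0 in Dnmt1-/-, was not tested by the authors' software.

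Promoter windows of RefSeq, which run from 250 bases before to 50 bases after a start site in GRCm38.p6, were found for 6 of the 10 genes, Tbx1, Tbx4, Tbx6, Tbx18, Tbx20 and Eomes. Tbx1 had 2 such windows. The windows of Tbx1 are shown because its RNA differed most between the libraries, and those of Tbx20, Eomes and Tbx18 because their RNA was lower or little different. Each is written 5′ to 3′ on the strand of the gene, and capitals mark the CpG dinucleotides, the sites at which Dnmt1 maintains methylation.
Tbx1, minus strand, chr16:18588850-18589149: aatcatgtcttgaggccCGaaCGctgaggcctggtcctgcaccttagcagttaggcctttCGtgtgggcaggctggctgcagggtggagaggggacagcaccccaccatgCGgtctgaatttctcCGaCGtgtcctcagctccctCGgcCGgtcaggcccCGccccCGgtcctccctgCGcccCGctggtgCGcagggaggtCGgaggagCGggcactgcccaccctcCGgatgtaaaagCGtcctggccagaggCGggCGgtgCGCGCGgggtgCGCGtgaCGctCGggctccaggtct
Tbx1, minus strand, upstream start, chr16:18590622-18590921: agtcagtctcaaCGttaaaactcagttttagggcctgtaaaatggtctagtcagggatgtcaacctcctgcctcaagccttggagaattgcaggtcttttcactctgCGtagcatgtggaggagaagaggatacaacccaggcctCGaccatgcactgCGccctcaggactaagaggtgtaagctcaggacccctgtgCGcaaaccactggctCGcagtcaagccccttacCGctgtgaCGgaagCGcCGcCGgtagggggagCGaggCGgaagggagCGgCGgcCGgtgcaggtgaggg
Tbx20, minus strand, chr9:24774254-24774553: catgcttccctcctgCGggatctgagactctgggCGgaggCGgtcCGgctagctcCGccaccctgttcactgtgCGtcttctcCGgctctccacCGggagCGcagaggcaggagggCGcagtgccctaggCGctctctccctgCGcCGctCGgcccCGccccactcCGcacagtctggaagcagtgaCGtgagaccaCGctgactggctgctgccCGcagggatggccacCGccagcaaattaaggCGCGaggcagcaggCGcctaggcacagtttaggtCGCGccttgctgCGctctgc
Eomes, plus strand, chr9:118477939-118478238: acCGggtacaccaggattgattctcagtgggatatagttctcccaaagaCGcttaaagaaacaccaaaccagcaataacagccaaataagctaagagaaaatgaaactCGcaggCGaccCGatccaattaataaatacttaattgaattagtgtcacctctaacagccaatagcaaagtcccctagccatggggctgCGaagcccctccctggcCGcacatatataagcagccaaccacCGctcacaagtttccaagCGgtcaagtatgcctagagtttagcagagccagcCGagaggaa
Tbx18, minus strand, chr9:87731211-87731510: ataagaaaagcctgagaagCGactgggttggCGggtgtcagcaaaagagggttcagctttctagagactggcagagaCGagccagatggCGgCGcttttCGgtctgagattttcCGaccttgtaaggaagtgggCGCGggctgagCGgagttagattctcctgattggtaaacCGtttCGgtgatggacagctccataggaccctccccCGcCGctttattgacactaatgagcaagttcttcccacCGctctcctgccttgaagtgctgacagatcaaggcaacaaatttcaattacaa

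The window of Tbx20 and the first shown of Tbx1 held 26 CpGs each, more than 83.1% of the 32851 RefSeq windows, whose median was 7. The upstream window of Tbx1 held 16 CpGs, that of Tbx18 15 and that of Eomes 10. Tbx4 had 8 and Tbx6 had 7 CpGs. Outside its upstream window, Tbx1 had the same number as Tbx20, and the RNA changes of these genes were in opposite directions. Whether CpG number bears on these changes was not tested. The T-box core motif GGTGTGA, on either strand, was in none of the 7 windows and in 3.98% of all windows, and the longer AGGTGTGA, which contains it, was in 1.28% of all windows. The letters TATAAA, on either strand, were in the windows of Tbx4 and Tbx6 and in 13.6% of all windows. Whether these CpGs were methylated in the MEFs was not analysed here.

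**Figure D1:**
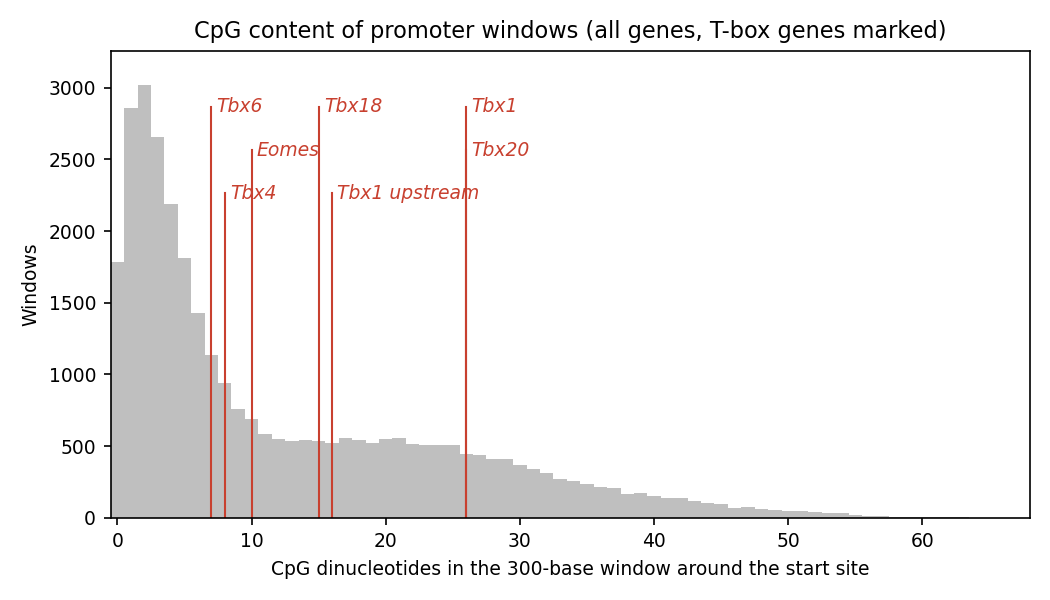
CpG dinucleotides in 300-base RefSeq windows around start sites (x axis) against the number of windows (y axis); grey bars are all 32851 windows and red lines the 7 windows of the T-box genes. A window of Tbx1 and that of Tbx20 sit together at 26 CpGs, to the right of the upstream window of Tbx1 at 16. Further left are Tbx18 at 15, Eomes at 10, Tbx4 at 8 and Tbx6 at 7.

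Among T-box genes that reached 1 RPKM, Tbx1 and Tbx3 had over 2-fold more RNA in the Dnmt1-/- library. Of the 10 genes, 5 were kept, namely Tbx1, Tbx3, Tbx15, Tbx18 and Tbx20. Of the 5, Tbx1 and Tbx3 (2 genes) were more than 2-fold higher in Dnmt1-/-, where 8.47% of all genes kept were, and Tbx20 (1 gene) was more than 2-fold lower, where 10.9% of all genes kept were. Past 2-fold in either direction were 3 of these 5 genes and 19.4% of all genes kept. Tbx1 and Tbx3 were kept only through their level in Dnmt1-/-, and with so few genes the counts stand as a description. The median log2 change of the 5 was -0.18, the value of Tbx18, beside -0.14 for all genes kept. The 5 held both rises and falls. The other 5 genes stayed under 1 RPKM in both libraries or were listed at 0.

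Tbx1, which patterns the pharyngeal arches and the outflow tract of the heart, had 0.0395 RPKM in Dnmt1+/+ and 6.84 RPKM in Dnmt1-/- MEFs. It was near the floor of the table in Dnmt1+/+ and of middling level in Dnmt1-/-, where 38.8% of the genes kept lay below it. The RPKM ratio was 173, the log2 change with the pseudocount was 5.64, and 63 of the genes kept (0.56%) had a larger rise. RPKM values of low genes should step by what 1 read is worth. From steps fitted to such values, the Dnmt1+/+ value corresponded to about 4 reads. The Dnmt1-/- value corresponded to between 776 and 802, depending on the transcript. The ratio therefore rests on very few reads in Dnmt1+/+, whereas the level in Dnmt1-/- does not. Its entry covers 18581806 to 18587062 on the minus strand of chromosome 16 in mm9. Placed on that build by exact sequence match, the RefSeq start sites shown above lie 1930 and 3702 bases before the entry's 5′ end, so the entry does not reach either window.

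Tbx3, a repressor with roles in limb, mammary gland and the conduction system of the heart, had 0.712 RPKM in Dnmt1+/+ and 4.25 RPKM in Dnmt1-/-. Its level was low in Dnmt1+/+ and 5.97 times that in Dnmt1-/-, with 2.42 as its log2 change. Among the genes kept, 3.54% had a larger rise. On chromosome 5 its entry spans 120120678 to 120134610 (plus strand). Tbx2, the closest relative of Tbx3 and likewise a repressor, had 0.0312 RPKM in Dnmt1+/+ and 0.0939 RPKM in Dnmt1-/-. By the read steps these values were about 6 and 22 reads. Both were near the floor of the table, and the level of Tbx3 exceeded that of Tbx2 by 22.8-fold in Dnmt1+/+ and by 45.3-fold in Dnmt1-/-. The log2 change of Tbx2 was 0.56 with the pseudocount of 0.1 and 1.33 with one of 0.01, so its size depends on that choice.

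Tbx4 and Tbx5, which mark hindlimb and forelimb, are the chromosomal partners of Tbx2 and Tbx3. Tbx4 follows Tbx2 on chromosome 11 (85703565 to 85729599), and Tbx5 follows Tbx3 on chromosome 5 (120284672 to 120335227). Both were listed at 0 in either library and carried the status NOTEST, which the authors' software gives an entry with too few reads. Thus in each of the 2 tandem pairs the Tbx2 or Tbx3 gene had an RPKM above 0 while its partner was listed at 0. Neither of these limb genes therefore had a measured level in either line.

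Tbx15, Tbx18 and Tbx20 made up most of the T-box RNA of Dnmt1+/+ MEFs. Tbx15, required for skeletal and dermal mesenchyme of limb, trunk and head, had 11.5 RPKM in Dnmt1+/+ and 8.26 RPKM in Dnmt1-/-. It was the highest of the 10 genes in both libraries, with a log2 change of -0.47, and lay above 50.5% and 44.0% of the genes kept. Tbx18, its nearest relative, active in somites, the epicardium and the sinus node, had 4.43 RPKM in Dnmt1+/+ and 3.89 RPKM in Dnmt1-/-, a log2 change of -0.18. By the read steps these values were about 1118 and 1201 reads, approximate numbers whose order gives no direction of change. The level of Tbx18 differed little between the libraries, and it was within 0.04 of the median change of all genes (-0.04 after centring). An entry without a symbol has the same locus as Tbx18, with 6.09 RPKM in Dnmt1+/+ and 9.70 RPKM in Dnmt1-/-, and how reads were shared between them is not given in the sources used here, so the value of Tbx18 is uncertain.

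Tbx20, which keeps the working heart chambers distinct by repressing Tbx2, had 6.09 RPKM in Dnmt1+/+ and 2.76 RPKM in Dnmt1-/- MEFs. It was 2.20-fold lower in Dnmt1-/-, a log2 change of -1.11, and 8.84% of the genes kept had a larger fall. After subtraction of the median change of all genes its log2 change was -0.97, and with a pseudocount of 1 it was -0.91, both short of 2-fold. Tbx2, given above, was near the floor in both libraries, with 0.0312 RPKM in Dnmt1+/+ and 0.0939 RPKM in Dnmt1-/-. Whether Tbx20 bears on the level of Tbx2 was not tested.

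Eomes and Tbx6, which act in early mesoderm, had little RNA in either library. Eomes, needed for gastrulation and for trophoblast, had 0.308 RPKM in Dnmt1+/+ and 0.0372 RPKM in Dnmt1-/-, a log2 change of -1.57. By the read steps these values were between 27 and 59 reads in Dnmt1+/+ and between 4 and 9 in Dnmt1-/-. The level was low in Dnmt1+/+ and lower still in Dnmt1-/-, and Eomes was not among the genes kept. Without the filter on low RPKM it counts as more than 2-fold lower, as do 11.1% of the 14865 genes with status OK and a symbol. Of those, 9.92% were more than 2-fold higher and 21.1% were past 2-fold in either direction. Tbx6, which directs cells to paraxial mesoderm, had 0.0192 RPKM in Dnmt1+/+, about 2 reads, and was listed at 0 in Dnmt1-/-, with status NOTEST.

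**Figure D2:**
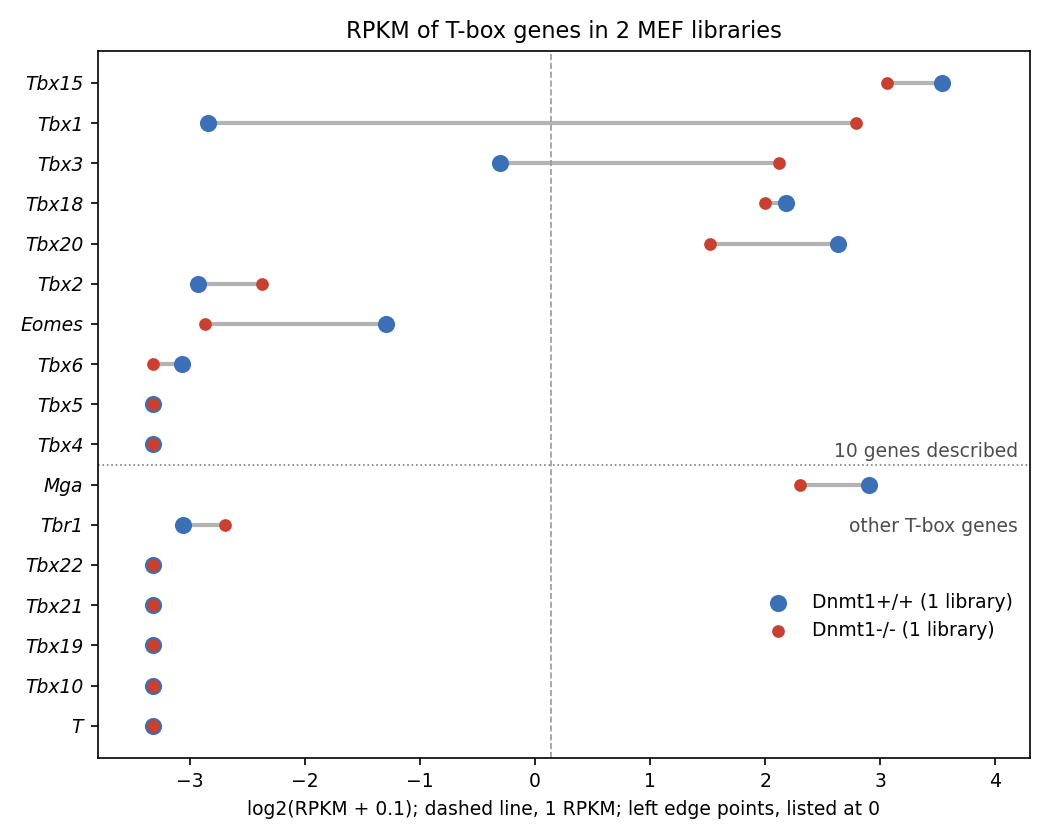
Level of each T-box gene as log2(RPKM + 0.1) (x axis) in the Dnmt1+/+ library (blue) and the Dnmt1-/- library (red), joined by a grey line, with the 10 genes described above the dotted line and the other 7 T-box genes below it. Tbx1 and Tbx3 cross the dashed line at 1 RPKM from left to right, from 0.0395 to 6.84 and from 0.712 to 4.25 RPKM, and the points at the far left are listed at 0.

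Summed over the 10 genes the level was 23.2 RPKM in Dnmt1+/+ and 26.1 RPKM in Dnmt1-/-, 1.13-fold higher, while its make-up differed. Tbx15, Tbx18 and Tbx20 held 95.2% of the sum in Dnmt1+/+ and 57.1% in Dnmt1-/-. Tbx1 and Tbx3 held 3.25% in Dnmt1+/+ and 42.4% in Dnmt1-/-. In order of level, Dnmt1+/+ MEFs had Tbx15, Tbx20, Tbx18 and Tbx3, followed by Eomes. In Dnmt1-/- MEFs Tbx15 was followed by Tbx1, Tbx3, Tbx18 and Tbx20. Tbx15 exceeded Tbx1 by 291-fold in Dnmt1+/+ and by 1.21-fold in Dnmt1-/-. Without replicates it cannot be said which neighbours in these orders differ.

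The mouse genome holds 7 further T-box genes, T, Tbr1, Tbx10, Tbx19, Tbx21, Tbx22 and Mga. Of these, 5 were listed at 0 in both libraries, namely T, Tbx10, Tbx19, Tbx21 and Tbx22. Tbr1, a cortical neuron factor and the closest relative of Eomes, had 0.0201 RPKM in Dnmt1+/+ and 0.0552 RPKM in Dnmt1-/-. Mga, a widely expressed repressor that joins a T-box to a helix-loop-helix domain and pairs with Max, had 7.36 RPKM in Dnmt1+/+ and 4.82 RPKM in Dnmt1-/-, a log2 change of -0.60. With these, 4 of 17 T-box genes reached 1 RPKM in Dnmt1+/+ and 6 did in Dnmt1-/-.

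**Figure D3:**
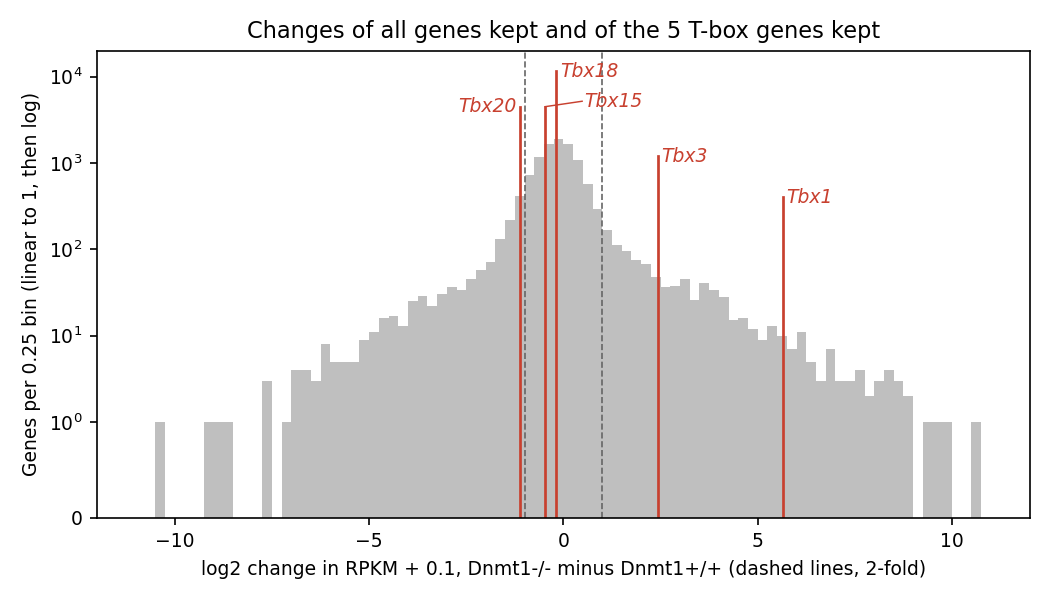
Number of genes (y axis, linear up to 1 and logarithmic above) by log2 change in RPKM + 0.1, Dnmt1-/- minus Dnmt1+/+ (x axis), for the 11244 genes kept (grey), with red lines at the 5 T-box genes kept. Tbx1 at 5.64 and Tbx3 at 2.42 lie in the right tail, Tbx20 at -1.11 lies just beyond the 2-fold line on the left, and Tbx15 and Tbx18 lie in the centre.

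The nearest kept genes on either side of the 10 loci, T-box genes left out, were 16 in number, as the Tbx2 and Tbx4 pair and the Tbx3 and Tbx5 pair share theirs. None was more than 2-fold higher and none more than 2-fold lower in Dnmt1-/-, where 8.47% and 10.9% of all genes kept were. Their median log2 change was 0.01. Beside Tbx1, Gnb1l had 3.92 RPKM in Dnmt1+/+ and 7.49 RPKM in Dnmt1-/-, a log2 change of 0.92, at a distance of 15.0 kb. On the other side of Tbx1, 33.4 kb away, an entry that overlaps Sept5 and Gp1bb, with its symbol turned into a date in the table, had 59.9 and 66.6 RPKM. Med13l and Rbm19, which flank Tbx3 and Tbx5 at 905 kb before Tbx3 and 231 kb after Tbx5, had log2 changes of -0.61 and -0.07. Bcas3 and Brip1, around Tbx2 and Tbx4, had log2 changes of 0.56 and 0.33. Around Tbx20, Dpy19l1 and Herpud2 had log2 changes of 0.29 and 0.08. The nearest kept genes lay 905 and 432 kb from Tbx3, and 218 and 334 kb from Tbx20. Genes nearer by that were not kept are left out here, and whether the regions changed together was not tested. Relative to the median of all genes kept, 2 of the 16, Gnb1l and Cmc1, passed 2-fold. The lowest neighbour was 4922501C03Rik, 447 kb from Tbx18, with 12 RPKM in Dnmt1+/+ and 6 RPKM in Dnmt1-/-, a log2 change of -0.98. Ypel3, 0.931 kb from Tbx6, had 12.2 and 6.44 RPKM, a log2 change of -0.91. Of the remaining neighbours, Ppp4c, Wars2, Wdr3, Snx14, Cmc1 and Golga4 had log2 changes from -0.40 (Snx14) to 0.87 (Cmc1).

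**Figure D4:**
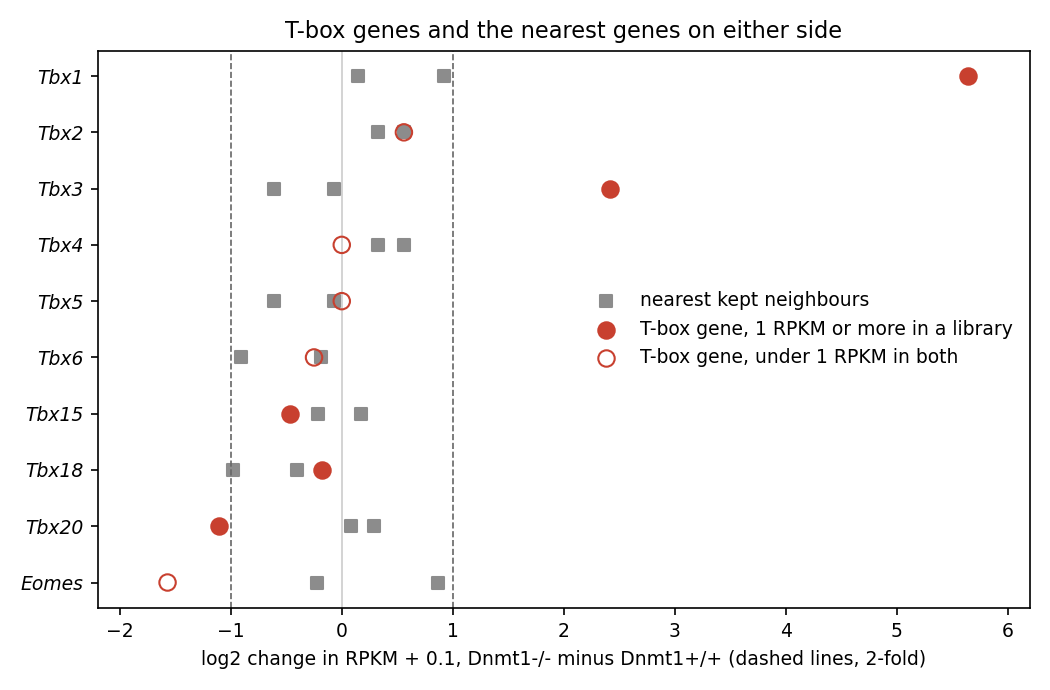
Log2 change in RPKM + 0.1, Dnmt1-/- minus Dnmt1+/+ (x axis), of each of the 10 T-box genes (red circles, open where under 1 RPKM in both libraries) and of its nearest kept neighbours (grey squares), 1 row per T-box gene. All squares lie inside the dashed 2-fold lines, whereas Tbx1 lies at 5.64 and Tbx3 at 2.42.

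T-box proteins act with partner factors and corepressors, and 25 such genes were listed. This list and those of upstream regulators and targets below were chosen with earlier results of these data known. Their shares therefore stand as a description. Of the 18 kept, 3 (16.7%) were past 2-fold upwards in Dnmt1-/- and 1 (5.56%) was past it downwards, beside 8.47% and 10.9% of all genes kept, and their median log2 change was -0.06. All 3 that were higher encode developmental transcription factors. Gata4, a zinc finger factor that works with Tbx5 in the heart, had 0.151 RPKM in Dnmt1+/+ and 5 RPKM in Dnmt1-/-. Nkx2-5, a homeodomain factor of cardiac progenitors that binds with Tbx5 and Tbx20, had 0.143 and 1.58 RPKM. Pitx1, a hindlimb homeodomain factor, had 1.02 and 13.5 RPKM. Gata4 and Nkx2-5, like Tbx1 and Tbx3, were under 1 RPKM in Dnmt1+/+, so they were kept only through their level in Dnmt1-/-. The 1 gene that was lower was Ldb3, a muscle LIM protein gene, at 5.94 and 1.57 RPKM. The general corepressors were within 2-fold, with Tle1, Tle2, Tle3, Tle4, Hdac1 and Hdac2 between -0.87 (Tle2) and 0.05 (Tle4) on the log2 scale. Max had 31.4 and 38.5 RPKM, a log2 change of 0.29, where its partner Mga was at -0.60.

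Of 29 genes described as acting before T-box genes in limb, pharynx, heart or gastrula, 16 were kept, and 5 (31.2%) were higher and 2 (12.5%) lower by more than 2-fold. The shares over all genes kept were 8.47% and 10.9%, and the median log2 change of the 16 was 0.37. The 5 were Bmp2, Hoxc10, Pitx1, Cyp26b1 and Hoxc9. Of these, Bmp2, Cyp26b1 and Hoxc9 were under 1 RPKM in Dnmt1+/+, so they were kept only through their level in Dnmt1-/-. Bmp2, a ligand that induces Tbx2 and Tbx3 in heart and limb, had 0.0164 RPKM in Dnmt1+/+ and 6.44 RPKM in Dnmt1-/-, whereas Bmp4, another such ligand, had 11.0 and 12.4 RPKM. Pitx1, which switches on Tbx4 in the hindlimb bud, was 13.3-fold higher in Dnmt1-/-, where Tbx4 was listed at 0. Cyp26b1, which breaks down retinoic acid, had 0.355 and 2.64 RPKM. Hoxc9 had 0.705 and 2.94 RPKM, and Hoxc10 had 1.11 and 21.0 RPKM. The 2 lower genes were Foxc1, a forkhead gene that is also in the list of targets, at 14.7 and 5.85 RPKM, and Hoxb4. Hoxb4, at 2.83 and 0.224 RPKM, was kept only through its level in Dnmt1+/+. Foxc2, the close relative of Foxc1, had 10.8 and 15.9 RPKM. Shh, Fgf8, Wnt3a, Nodal and Isl1 were listed at 0 in both libraries.

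Of 36 genes described as targets of T-box factors, 35 had an entry and 16 were kept. Among these, 2 (12.5%) were higher and 7 (43.8%) lower in Dnmt1-/- by more than 2-fold, where 8.47% and 10.9% of all genes kept were, and their median log2 change was -0.71. The list, chosen with earlier results of these data known, joins genes that different T-box factors activate and genes that they repress. It has no single predicted direction. Both higher genes were listed at 0 in Dnmt1+/+, so they were kept only through their level in Dnmt1-/-. Hand2, a helix-loop-helix gene of heart and posterior limb, had 13.7 RPKM in Dnmt1-/-, and Nppb, a natriuretic peptide gene, had 4.85 RPKM. Nppa, the neighbour of Nppb and a classical target of Tbx5, Tbx2 and Tbx3, had 0.173 RPKM in Dnmt1+/+ and 0.0369 RPKM in Dnmt1-/- and was not kept. Cell cycle inhibitor genes, of which Cdkn2a and Cdkn1a are known to be repressed by Tbx2 and Tbx3, were lower in the library with more Tbx3. Cdkn2a had 328 RPKM in Dnmt1+/+ and 137 RPKM in Dnmt1-/-, Cdkn2b had 65.9 and 18.4 RPKM, and Cdkn1a had 8.61 and 1.41 RPKM. Cdkn2a and Cdkn2b are neighbours on chromosome 4, and both lines lack p53, an activator of Cdkn1a. Has2, a hyaluronan synthase gene of the heart cushions, had 20.5 and 1.64 RPKM. Hey2, a Notch-responsive repressor gene, had 1.77 and 0.144 RPKM and was kept only through its level in Dnmt1+/+. Foxc1, given above, and Vegfa, at 45.9 and 21.8 RPKM, complete the 7. Gja1, a gap junction gene that Tbx2 and Tbx3 are also known to repress, had 43 and 60.6 RPKM, within 2-fold. Without the filter on low RPKM, 11 target genes were more than 2-fold lower. Whether Tbx3 or Tbx1 has a part in these values was not tested.

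**Figure D5:**
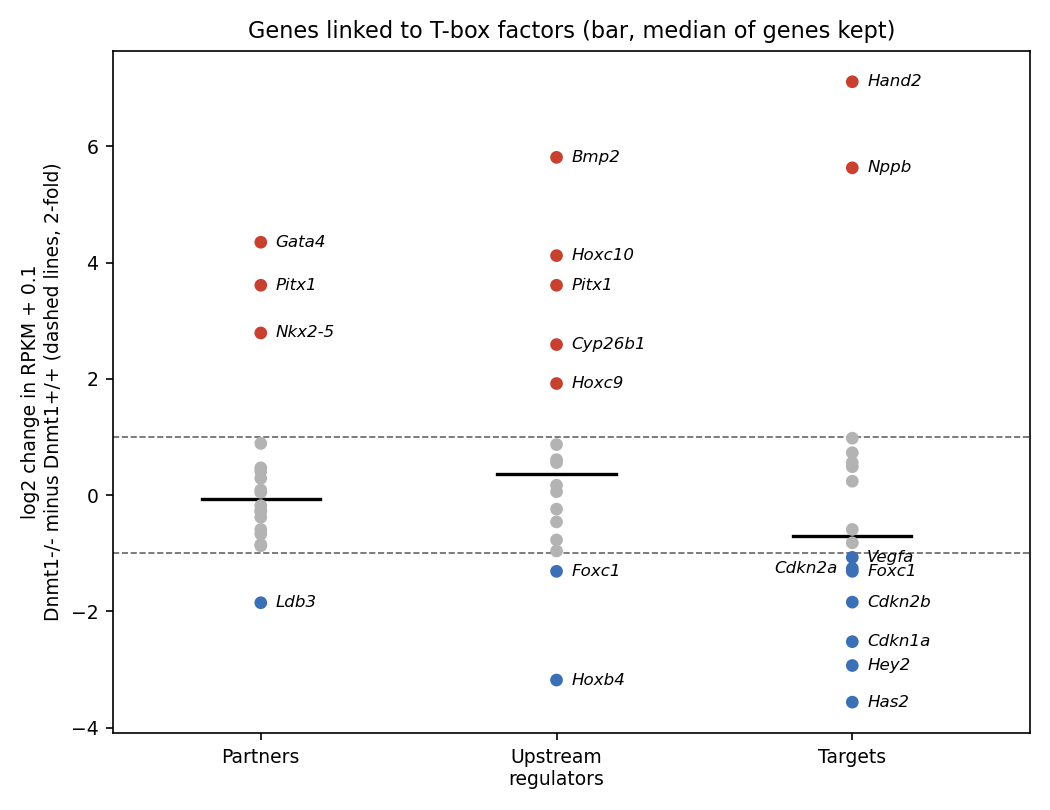
Log2 change in RPKM + 0.1, Dnmt1-/- minus Dnmt1+/+ (y axis), of the kept genes of 3 lists, with 18 partners, 16 upstream regulators and 16 targets; red points are more than 2-fold higher, blue points more than 2-fold lower, and black bars are medians of -0.06, 0.37 and -0.71. Hand2 and Nppb were listed at 0 in Dnmt1+/+, so their height depends on the pseudocount, and Pitx1 and Foxc1 are each in 2 of the lists.

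Tbx18, Tbx20 and Gata4 are also used as markers of heart and epicardium, and markers of these tissues were examined beside them. Of 7 cardiac muscle markers, Tnnt2 was the 1 that was kept, with 2.30 RPKM in Dnmt1+/+ and 27.7 RPKM in Dnmt1-/-. The other 6 markers, Myh6, Myh7, Actn2, Nppa, Myl2 and Tnni3, were under 1 RPKM in both libraries. Of these, Tnni3 had 0.662 and 0.13 RPKM, Nppa 0.173 and 0.0369 RPKM, Myh7 0.109 and 0.00371 RPKM, and Myh6 0.0284 and 0.00117 RPKM, all lower in Dnmt1-/-. Actn2 was listed at 0 in Dnmt1+/+ with 0.00515 RPKM in Dnmt1-/-, and Myl2 was listed at 0 in both. The 7 summed to 3.27 RPKM in Dnmt1+/+ and 27.8 RPKM in Dnmt1-/-, nearly all of the latter from Tnnt2. Of 5 mesothelial and epicardial markers, Msln was kept, with 2.17 and 141 RPKM. Upk3b had 0.00867 and 0.309 RPKM. Aldh1a2, at 0.0242 RPKM in Dnmt1-/-, was listed at 0 in Dnmt1+/+, and Wt1 and Tcf21 were listed at 0 in both. Msln and Tnnt2 were thus higher in the library with more Tbx1, Tbx3 and Gata4, as were Upk3b, Aldh1a2 and Actn2, all under 1 RPKM. Myh6, Myh7, Nppa and Tnni3 were lower there. Tbx20 was also lower there and Tbx18 little different, and the part of these markers in the T-box values was not tested. In bulk RNA, more cells with a gene and more RNA per cell cannot be told apart. Markers of other kinds were mostly low. The 4 endothelial and the 4 pluripotent markers were all under 1 RPKM in both libraries. Among the 5 epithelial markers with an entry, Krt19 had 6.90 and 0.326 RPKM, Krt18 had 0.0358 and 0.441 RPKM, Krt8 was listed at 0 in Dnmt1+/+ with 0.216 RPKM in Dnmt1-/-, and Cdh1 and Epcam stayed under 1 RPKM. Among the 3 blood markers with an entry Cd68 had 0.596 and 3.63 RPKM and Ptprc was listed at 0 in both.

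The genes whose pair of levels lay closest to that of Tbx1, by Euclidean distance of the log2(RPKM + 0.1) values in the 2 libraries, were Gpr39, Tnfrsf26 and Arhgap9, at distances of 0.14, 0.17 and 0.18. Gpr39, a G protein-coupled receptor gene, had 0.0309 RPKM in Dnmt1+/+ and 6.35 RPKM in Dnmt1-/-. Closest to Tbx20, the T-box gene kept with the largest fall, were Cryz, Rps6ka1 and Pdzrn3, at distances of 0.02, 0.05 and 0.06. Likeness over 2 libraries says only that levels were similar.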

How the data were processed

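One library per genotype was sequenced, and samples were grouped by the genotype label. The authors aligned 50 bp single-end reads (TopHat, mm9), built transcript models (Cufflinks) and deposited the RPKM values of Cuffdiff with a status per entry. Versions, further scaling of the libraries, the use of strand and the treatment of reads shared by paralogs or overlapping entries are not given in the sources used here. Locus starts count from 0 in the table and were written from 1. The table holds no read counts, so no interval or detection limit is given. In genes with 1 annotated transcript of at least 0.5 kb, the step that 1 read is worth was fitted to low values of RPKM times length. Of these, 61.7% of 149 in Dnmt1+/+ and 52.7% of 93 in Dnmt1-/- lay within 0.2 of a whole multiple. Without steps, 40% would for a step fixed beforehand. Because the step was fitted to these same values, the shares cannot show that steps exist. Read numbers derived from these steps, with GENCODE vM1 transcript lengths, are approximate, and they were added after the data had been seen.

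No test was run. Calls mean more than 2-fold on the log2(RPKM + 0.1) scale. The genes, the lists of partners, upstream regulators, targets and markers, and the naming rule were chosen with earlier results of these data known. The rule named all T-box genes, their nearest kept neighbours, list genes past 2-fold (up to 8 of each list by size) and the 3 genes nearest in level to the extreme T-box genes. Other list genes in the text were picked with their values in view. The calling step was tested on simulated data. Alternatives were pseudocounts of 1 and 0.01 or none, no filter, a mean filter, centring and a 1.5-fold threshold. Python 3.11.15, numpy 2.4.6, pandas 2.3.3 and matplotlib 3.10.9 were used.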

Additional observations from a re-analysis of the deposited data

Results flagged for a closer look

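Beside Tbx18, 2 entries without a symbol had signal that was higher in Dnmt1-/- than in the control library and that enters no comparison above. The first, 28461 bp long, has the same locus as Tbx18 (chromosome 9, 87597635 to 87626095) and had 6.09 RPKM in Dnmt1+/+ and 9.70 RPKM in Dnmt1-/-, a log2 change of 0.66. The second, of 382 bp, begins 137 bases beyond the 5′ end of Tbx18, at 87626232, and had 0.823 RPKM in Dnmt1+/+ and 1.40 RPKM in Dnmt1-/-, a log2 change of 0.70. Tbx18 itself had a log2 change of -0.18. The strand of these entries is not in the table, and no other of the 10 genes had an entry without a symbol within 10 kb.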

How the results depend on the processing

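The 2 T-box genes that were more than 2-fold higher, Tbx1 and Tbx3, were called under every alternative tried. Their log2 changes were 7.43 and 2.58 without a pseudocount and 2.91 and 1.62 with a pseudocount of 1. A smaller or no pseudocount, no filter, a 1.5-fold threshold and centring could not have removed these calls. The 1 lower gene, Tbx20, was not: 0 genes were lower with a pseudocount of 1 (Tbx20 at -0.91) or with the median change subtracted (-0.97), and 2 were without the filter on low RPKM, where Eomes is added. The same numbers, 0, 0 and 2, hold for all T-box genes, and a 1.5-fold threshold gave 2, with Mga. That threshold also gave 5 lower partners, 4 lower upstream regulators, 4 higher targets, and 2 higher and 3 lower neighbours. Target genes numbered 0 higher without a pseudocount, as Hand2 and Nppb drop out at 0, and without the filter 11 were lower and the median was -1.0. Subtraction of the median change gave 2 higher neighbours. Of 122 such values under alternatives, 106 stayed within 1.5 times the count or within 0.25 of the median reported. The log2 changes of Tbx1, Tbx2, Tbx3, Tbx6, Tbx15, Tbx18, Tbx20 and Eomes kept their sign with the median change subtracted. The other alternatives, by their form, cannot change a sign. No paired analysis was possible because each genotype has 1 library. The values of Tbx1 in Dnmt1+/+, of Tbx2, of Tbx6 and of Eomes in Dnmt1-/- rest on few reads.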
